A study of Mus musculus with 4 samples.

Results

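Of the 10 genes described here, Acta2, Actg2, Myh11, Cnn1, Tagln, Lmod1, Smtn, Des and Myocd encode the contractile apparatus of smooth muscle and its regulators. The other, Mcam, encodes an adhesion molecule at the surface of smooth muscle cells and some other cells. The 10 genes were found by symbol among the 54532 genes of the deposited count table, where each had 1 row. They were selected on their known role and on log2 fold changes of these same 4 libraries, those of Cnn1, Mcam and Lmod1 among them, so the levels and differences below are a description with no test. Poly(A) RNA came from C3H10T1/2 cells, a mesenchymal stem cell (MSC) line from C3H mouse embryos that can take several connective tissue fates. The control library came from uninduced cells that received a control siRNA for 48 h. The siDNMT1 library came from uninduced cells that received an siRNA against DNMT1, the enzyme that copies DNA methylation after replication. The OB library came from cells with control siRNA and 3 days of osteoblast (OB) induction in medium with 50 µM ascorbic acid, 10 mM glycerophosphate and dexamethasone. The siDNMT1_OB library came from cells given the DNMT1 siRNA and then the same induction. The labels name no uninduced library kept for the same 3 days, so induction and time in culture cannot be told apart. Each group held 1 library, so no difference has a replicate check, and the 95% intervals cover counting error only, not the spread between dishes. In bulk RNA, more cells of a type and more RNA per cell cannot be told apart.

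Smooth muscle cells contract when myosin pulls on actin filaments that are anchored to the cell membrane and to intermediate filaments. Most genes of this apparatus are switched on by serum response factor (SRF) together with myocardin or the myocardin-related factors MRTF-A and MRTF-B. SRF binds a short AT-rich element called the CArG box. Fibroblasts and mesenchymal stem cells in culture also use part of the set, above all Acta2, whereas Myh11 and myocardin are more restricted to mature smooth muscle.

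Total counts lay between 22296046 in OB and 27367792 in control. Levels are given as CPM (the count of a gene relative to the TMM-scaled total of its library), and 3 counts equalled 0.111 to 0.133 CPM. Of the 10 genes, 7 passed the filter of a mean of at least 1 CPM over the 4 libraries, as did 13233 genes in all. Myh11, Des and Myocd did not. Cnn1 passed only through the library labelled siDNMT1_OB. Dnmt1 had 7195 counts in control and 3375 in siDNMT1, a 2.01-fold lower CPM. It had 1931 counts in OB and 2492 in the library labelled siDNMT1_OB, a 1.09-fold higher CPM, so the targeted mRNA was not lower there than in OB. Directions that rest on that library carry this limit. The MSC markers Pdgfrb, Prrx1 and Itgb1 were abundant, and 12 of 13 markers of that list passed the filter. Others were lower: Twist2 lay at 3.21 to 8.18 CPM, and Nt5e, with 8 to 50 counts, did not pass. The log2 fold changes of this list after DNMT1 siRNA had their median at −0.23 in uninduced cells, with 4 of 12 positive and Twist2 (−1.19) and Ly6a (−1.03) lowest, and at −0.20 in OB cells, with 3 of 12 positive. The part of this in the members' differences was not tested.

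The promoters of 6 of the 10 genes were found in a RefSeq table (GRCm38.p6, 250 bases before to 50 after a start site), namely those of Acta2, Cnn1, Lmod1, Smtn, Des and Mcam. Those of Actg2, Myh11, Tagln and Myocd were not. The bases upstream of the start site are shown for Acta2, the most abundant member, for Cnn1, the member whose level differed most, in either direction, between the induced libraries, and for Lmod1, the member whose level differed most between the uninduced ones. Capitals mark CArG-like elements, where a CArG box is CC, then a core of 6 bases that are all A or T, then GG, and a CArG-like element may have 1 G or C in the core. A match to either is a match on both strands, and no other motif was searched. Each printed run ends where the start site or the deposited gene begins, whichever comes first.
Acta2, chr19:34255374-34255623, minus strand: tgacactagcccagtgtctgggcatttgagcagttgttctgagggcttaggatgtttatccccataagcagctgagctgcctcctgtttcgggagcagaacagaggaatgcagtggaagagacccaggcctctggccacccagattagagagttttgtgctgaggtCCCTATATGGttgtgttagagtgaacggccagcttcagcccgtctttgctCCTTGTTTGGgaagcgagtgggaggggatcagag
Cnn1, chr9:22099003-22099215, plus strand: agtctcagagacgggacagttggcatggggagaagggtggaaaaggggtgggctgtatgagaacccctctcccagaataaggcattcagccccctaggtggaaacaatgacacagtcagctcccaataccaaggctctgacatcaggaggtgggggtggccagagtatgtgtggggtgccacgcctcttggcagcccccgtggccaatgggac
Lmod1, chr1:135324563-135324806, plus strand: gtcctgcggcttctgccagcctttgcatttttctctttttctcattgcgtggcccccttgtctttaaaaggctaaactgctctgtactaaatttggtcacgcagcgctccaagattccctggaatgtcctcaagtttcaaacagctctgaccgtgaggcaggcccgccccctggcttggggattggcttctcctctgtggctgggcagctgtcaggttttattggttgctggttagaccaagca

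The Acta2 window held 2 CArG-like elements, CCCTATATGG starting 84 bases and CCTTGTTTGG starting 34 bases before the start site. A pair or more of them occurred in 0.822% of the 32851 promoter windows of the table, and at least 1 in 9.98%. The other 5 windows held none (that of Smtn lies at a start site 1320 bases inside the gene), which says only that these letters are not in them. The CArG box with a pure A and T core was in 0 of the 6 windows and in 1.63% of all windows. Because DNMT1 acts on CpG sites, these were counted as well. The windows of Acta2 and Cnn1 held 6 CpGs each, Lmod1 7, Smtn and Des 11 each, and Mcam 29, against a median of 7 over all windows (quartiles 3 and 20). Methylation of these windows was not analysed here.

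To follow the actin component, the 2 smooth muscle actins were examined first. Acta2 (ENSMUSG00000035783, chr19:34241090-34255336, minus strand, GRCm38) encodes smooth muscle alpha actin, which is also the actin of myofibroblast stress fibres. Control held 26761 counts and siDNMT1 87394, while OB held 25413 and the library labelled siDNMT1_OB 98223. The libraries labelled siDNMT1 and siDNMT1_OB were thus high, at 3411 and 3671 CPM. Control and OB were low, at 987 and 1124 CPM, so this order held with and without induction. This is a 3.46-fold higher level in uninduced cells (95% interval 3.41 to 3.51) and a 3.27-fold higher level in OB cells (3.22 to 3.31). Induction itself went with a 1.14-fold higher level with control siRNA and a 1.08-fold higher level with DNMT1 siRNA. Ranked by CPM per kb of exon, Acta2 was gene number 91 of the table in control and 13 in siDNMT1, 61 in OB and 11 in the library labelled siDNMT1_OB. Among the 6 actin genes, compared on the same scale, Acta2 made up 22.1% of the summed level in control and 44.9% in siDNMT1, 28.5% in OB and 49.2% in the library labelled siDNMT1_OB. The cytoplasmic actins Actb and Actg1 held nearly all of the rest.

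Actg2 (chr6:83512905-83536265, minus strand), the gamma actin of gut and bladder smooth muscle, had 481, 1300, 335 and 1655 counts in control, siDNMT1, OB and the library labelled siDNMT1_OB. Its order of libraries thus followed the DNMT1 siRNA labels, as that of Acta2 did. Its level in control was 11.4 CPM per kb, against 554 for Acta2. The level was 2.86-fold higher after DNMT1 siRNA in uninduced cells (2.58 to 3.18) and 4.18-fold higher in OB cells (3.71 to 4.71). Induction went with a 1.20-fold lower level with control siRNA (1.04 to 1.38) and a 1.22-fold higher level with DNMT1 siRNA (1.13 to 1.31). No stretch of 50 bases was shared between the annotated transcripts of Acta2 and Actg2. Acta2 shared 0.326% of its 2146 such stretches with Actg1 and its pseudogenes.

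Myh11 (chr16:14194535-14291372, minus strand), the myosin heavy chain specific to smooth muscle, was low in every library. Without induction there were 6 counts in control and 8 in siDNMT1, and with it 32 in OB and 30 in the library labelled siDNMT1_OB. Here the induced libraries were the higher ones, and those with and without DNMT1 siRNA were close. The ratio was 6.40 for OB against control (2.64 to 18.7) and 3.59 for the library labelled siDNMT1_OB against siDNMT1 (1.61 to 9.06). Its DNMT1 siRNA ratios, 1.41-fold higher in uninduced cells (0.43 to 4.94) and 1.26-fold lower in OB cells (0.74 to 2.15), were not distinguishable from no difference at this depth. Myh11 reached 0.186 CPM per kb at most, against 631 for Acta2 in the same OB library.

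**Figure D1:**
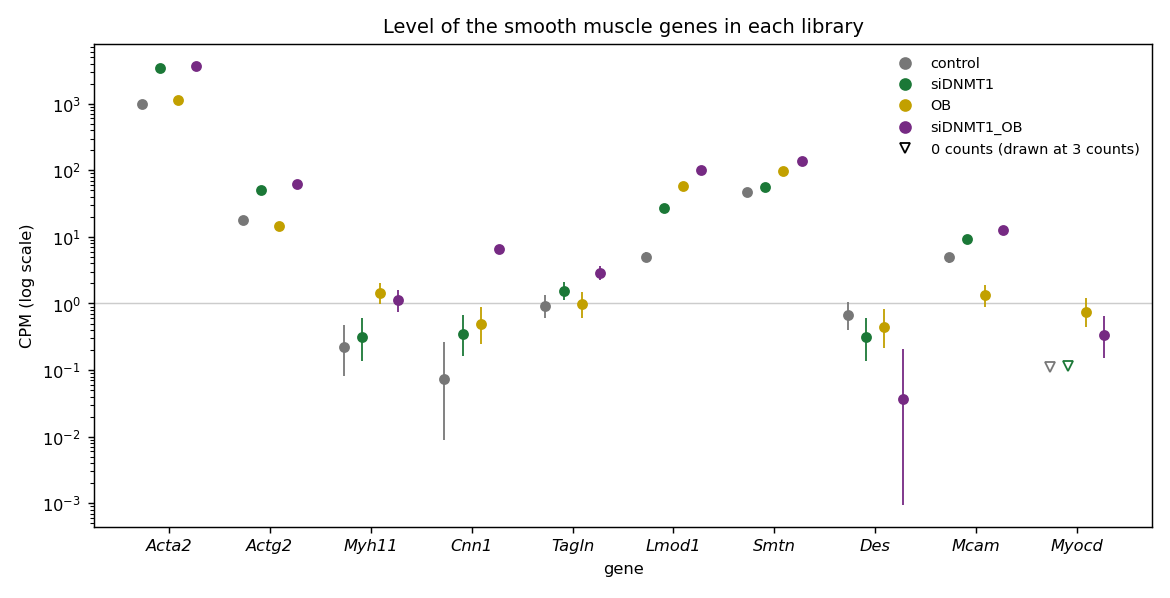
CPM of each of the 10 genes (log scale) in the 4 libraries, with exact 95% Poisson intervals of the count. Acta2 and Actg2 are high in the libraries labelled siDNMT1 and siDNMT1_OB, and Lmod1 is lowest in control. Smtn is higher in the induced libraries, and Mcam is lowest in OB. The 2 libraries with 0 counts of Myocd are drawn at 3 counts.

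Proteins that bind the actin filament formed the largest group. Cnn1 (ENSMUSG00000001349, chr9:22099216-22109630, plus strand) encodes calponin 1, which binds actin and damps the myosin ATPase. Only 2 counts were seen in control, against 9 in siDNMT1 and 11 in OB, while the library labelled siDNMT1_OB held 177. The last library stood apart, at 6.61 CPM against 0.486 or less in the others. The ratio was 13.6 in OB cells (7.42 to 27.7), a value that helped to choose the gene and the library through which it passed the filter. In uninduced cells it was 4.76 (0.99 to 45.3), so 9 counts against 2 did not exclude an equal level.

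Lmod1 (ENSMUSG00000048096, chr1:135324807-135368065, plus strand) encodes leiomodin 1, a nucleator of actin filaments in smooth muscle. Control held 134 counts and siDNMT1 694, OB 1307 and the library labelled siDNMT1_OB 2748. Control was thus the lowest library, and both DNMT1 siRNA and induction went with a higher level. DNMT1 siRNA went with a 5.48-fold higher level in uninduced cells (4.55 to 6.65) but a 1.78-fold higher level in OB cells (1.66 to 1.90). Induction went with an 11.7-fold higher level with control siRNA (9.79 to 14.1) and a 3.79-fold higher level with DNMT1 siRNA (3.49 to 4.13).

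Smtn (chr11:3517523-3540612, minus strand), smoothelin, had 1291, 1430, 2190 and 3691 counts in control, siDNMT1, OB and the library labelled siDNMT1_OB. The induced libraries were the higher ones, by 2.03-fold with control siRNA (1.90 to 2.18) and 2.47-fold with DNMT1 siRNA (2.32 to 2.63). DNMT1 siRNA went with smaller differences, 1.17-fold in uninduced cells (1.09 to 1.27) and 1.42-fold in OB cells (1.35 to 1.502). Of its 4380 exon bases, 714 lie in exons of the noncoding gene Gm11946 on the opposite strand, which had at most 69 counts.

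Tagln (chr9:45929619-45936058, minus strand) encodes transgelin, also known as SM22 alpha, a companion of Acta2 in most smooth muscle and stromal cells. Control held 25 counts and OB 22, siDNMT1 held 40, and the library labelled siDNMT1_OB, again the highest, held 77. Its ratio after DNMT1 siRNA was 1.69 in uninduced cells (1.00 to 2.91) and 2.96 in OB cells (1.82 to 4.99). The level of Tagln is uncertain: 1349 of its 1988 exon bases (67.9%) lie in exons of other genes on the opposite strand, 1241 of them in the antisense gene Gm48529. The library kit does not mark strand, and the treatment of reads that overlap 2 genes was not stated. Gm48529 itself had 16, 33, 20 and 24 counts.

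The remaining members have other roles. Mcam (ENSMUSG00000032135, chr9:44134469-44142727, plus strand) encodes CD146, an adhesion molecule at the surface of smooth muscle cells, pericytes and some bone marrow stromal cells. Uninduced cells gave 133 counts in control and 241 in siDNMT1, and induced cells 30 in OB and 334 in the library labelled siDNMT1_OB. OB was the low library, and the library labelled siDNMT1_OB was above control. The ratio after DNMT1 siRNA was 1.92 in uninduced cells (1.55 to 2.39) and 9.41 in OB cells (6.47 to 14.2). Induction went with a 3.70-fold lower level with control siRNA (2.47 to 5.69) and a 1.33-fold higher level with DNMT1 siRNA (1.12 to 1.57).

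Des (chr1:75360329-75368579, plus strand), desmin, the muscle intermediate filament protein, had few counts. Control held 18 counts and OB 10, whereas siDNMT1 held 8 and the library labelled siDNMT1_OB 1. Its ratio after DNMT1 siRNA was 2.13-fold lower in uninduced cells (0.88 to 5.65) and 11.8-fold lower in OB cells (1.68 to 514). The first interval includes an equal level, and the second rests on 1 count against 10. Of its 3754 exon bases, 220 overlap the antisense gene Gm15179.

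Myocd (chr11:65176561-65269989, minus strand), myocardin, the coactivator of SRF, had 0 counts in control and 0 in siDNMT1, 17 in OB and 9 in the library labelled siDNMT1_OB. It was seen only in the induced libraries. With control set to a floor of 3 counts, the ratio of OB to control was 6.80. With siDNMT1 set to the same floor, the ratio for induction with DNMT1 siRNA was 2.87. These ratios leave out the counting error of the 17 and 9 counts and are not bounds. The exact 95% lower limits of the log2 ratios were 2.31 and 0.92. Between the induced libraries it was 2.24-fold lower with DNMT1 siRNA (0.94 to 5.69).

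To see how DNMT1 siRNA went with the set without induction, all filtered genes were compared between siDNMT1 and control. A log2 fold change of at least 1 in size, with a prior count of 2 that shrinks low genes, was used as the limit, and 3.34% of the filtered genes were past it in either direction. Past it on the higher side were 4 members, Lmod1 (2.44), Acta2 (1.79), Actg2 (1.51) and Cnn1 (1.498), whereas 1.97% of the filtered genes were past it in that direction. No member was past it on the lower side (0, against 1.37%). The value of Cnn1 rests on 9 counts against 2. Mcam (0.93) and Tagln (0.71) were just short. The members that passed the filter had a median of 1.498, the value of Cnn1, with 7 of 7 positive (0.82 over all 10 members, and 1.02 over the 7 with a prior count of 5), and all filtered genes had a median of −0.001. Des, Myh11 and Myocd, outside the filter, are not in these counts.

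The same comparison in OB cells set the library labelled siDNMT1_OB against OB. Here 5 members were past the limit on the higher side, Cnn1 (3.57), Mcam (3.16), Actg2 (2.06), Acta2 (1.71) and Tagln (1.49), beside 2.36% of the filtered genes. On the lower side there were 0, beside 1.37%, which makes 3.73% in either direction. Lmod1 (0.83) and Smtn (0.51) were positive and short of the limit. With a filter of at least 5 mean CPM, 3 members were past it on the higher side. Cnn1 passed the filter of the main count only through the library labelled siDNMT1_OB. Of the 7 members 7 were positive, and their median was 1.71 against 0.01 for all filtered genes. Acta2 and Actg2 were past the limit in both states and Cnn1 as well, while 61 genes (0.461%) were so over the whole filtered set. Because the members were chosen with these contrasts known, nothing is read from the counts. Dividing-cell genes moved with this comparison: the 14 genes of a cell division list had a median of 1.04, with 14 of 14 positive, and their part in the members' difference was not tested. In uninduced cells the same list had a median of −0.23, with 2 of 14 positive.

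**Figure D2:**
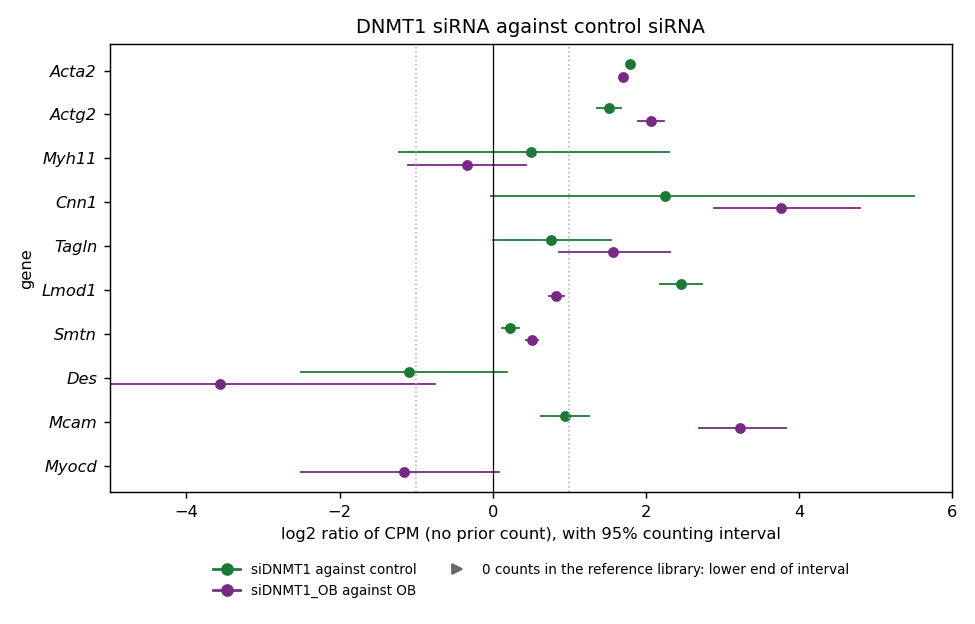
Ratio of CPM with DNMT1 siRNA to CPM with control siRNA for each gene (log2 scale, no prior count), in uninduced cells and in OB cells, with exact 95% counting intervals; dotted lines mark a log2 ratio of 1 in size, and the interval of Des runs off the left edge. Acta2 lies at nearly the same place in both states, at 1.79 and 1.71, while Lmod1 is higher in uninduced cells and Mcam in OB cells.

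The size of the DNMT1 siRNA difference in the 2 states was then compared, by subtracting the log2 fold change in uninduced cells from that in OB cells. The differences use the prior count of 2, whereas their intervals use the counts without it. Mcam was higher by 2.23 (95% interval 1.66 to 2.96) and Cnn1 by 2.07 (−1.91 to 4.03). Without a prior count the log2 ratios of Cnn1 were 3.77 in OB cells and 2.25 in uninduced cells, a smaller difference. Lmod1 was lower by 1.61 (difference −1.61, −1.92 to −1.34). Of the filtered genes, 3.27% had a difference of at least 1 upwards and 2.95% downwards, 6.23% in all. Tagln (0.78, −0.27 to 1.88), Actg2 (0.54, 0.31 to 0.78), Smtn (0.28, 0.15 to 0.41) and Acta2 (−0.08, −0.11 to −0.05) differed by less. The intervals of Cnn1, with 2 counts in control, and of Tagln span 0, so their differences between states were not detectable at this depth. None of these differences was tested across dishes.

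To see how the set behaved during OB induction, induced and uninduced libraries were compared. Differences between them may hold time in culture as well as the medium, and the 2 cannot be told apart. With control siRNA 3 members were past the limit on the higher side, Lmod1 (3.53), Cnn1 (1.89) and Smtn (1.02), beside 10.6% of the filtered genes. On the lower side there was 1, Mcam (−1.83), beside 7.1%, and 17.7% of the filtered genes were past the limit in either direction. Smtn was just past the limit, and at 0.98 it was short of it when TMM scaling used all genes. Acta2 (0.19), Tagln (0.07) and Actg2 (−0.26) were near 0. With DNMT1 siRNA 3 members were past it on the higher side, Cnn1 (3.96), Lmod1 (1.92) and Smtn (1.30), beside 6.83%, and 0 on the lower side, beside 2.71%, out of 9.54% in either direction. The 7 members had a median of 0.19 in the first comparison and 0.85 in the second. The first value is that of Acta2, and with Myh11, Des and Myocd included it was 0.61. The second was 1.08 with these included, and 0.41 with a filter of at least 5 mean CPM. Cell division genes had medians of −2.29 and −1.13 in these comparisons, with 0 of 14 positive in each, and their part was not tested. Each induction comparison shares a library with each DNMT1 siRNA comparison, so the values stand side by side and were not correlated.

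**Figure D3:**
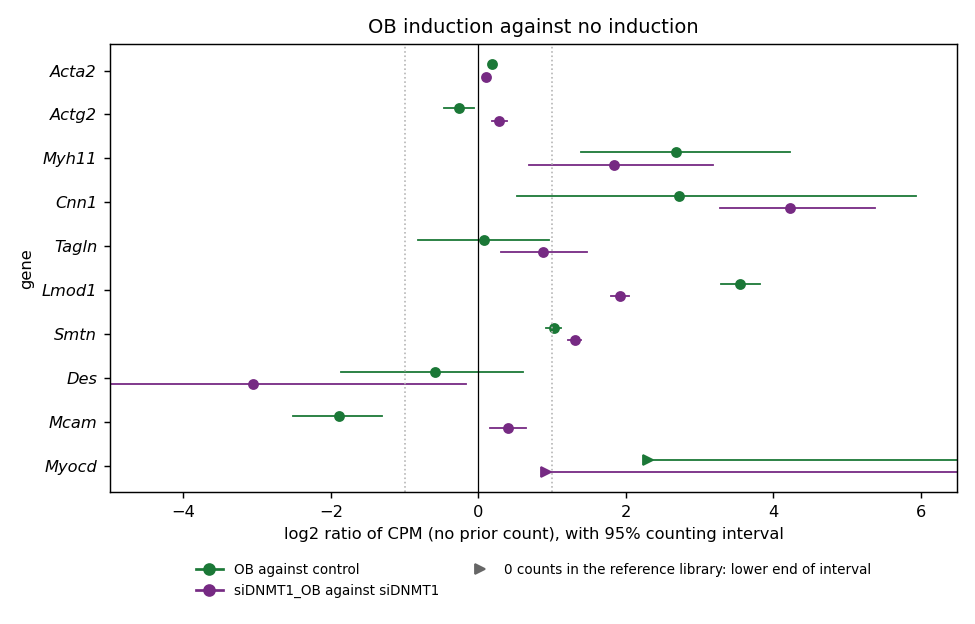
Ratio of CPM after OB induction to CPM without it for each gene (log2 scale, no prior count), with control siRNA and with DNMT1 siRNA, with exact 95% counting intervals; arrowheads mark the lower end of the interval where the uninduced library had 0 counts, and the interval of Des runs off the left edge. Mcam lies below 0 with control siRNA and above 0 with DNMT1 siRNA, and Acta2 lies near 0 in both.

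**Figure D4:**
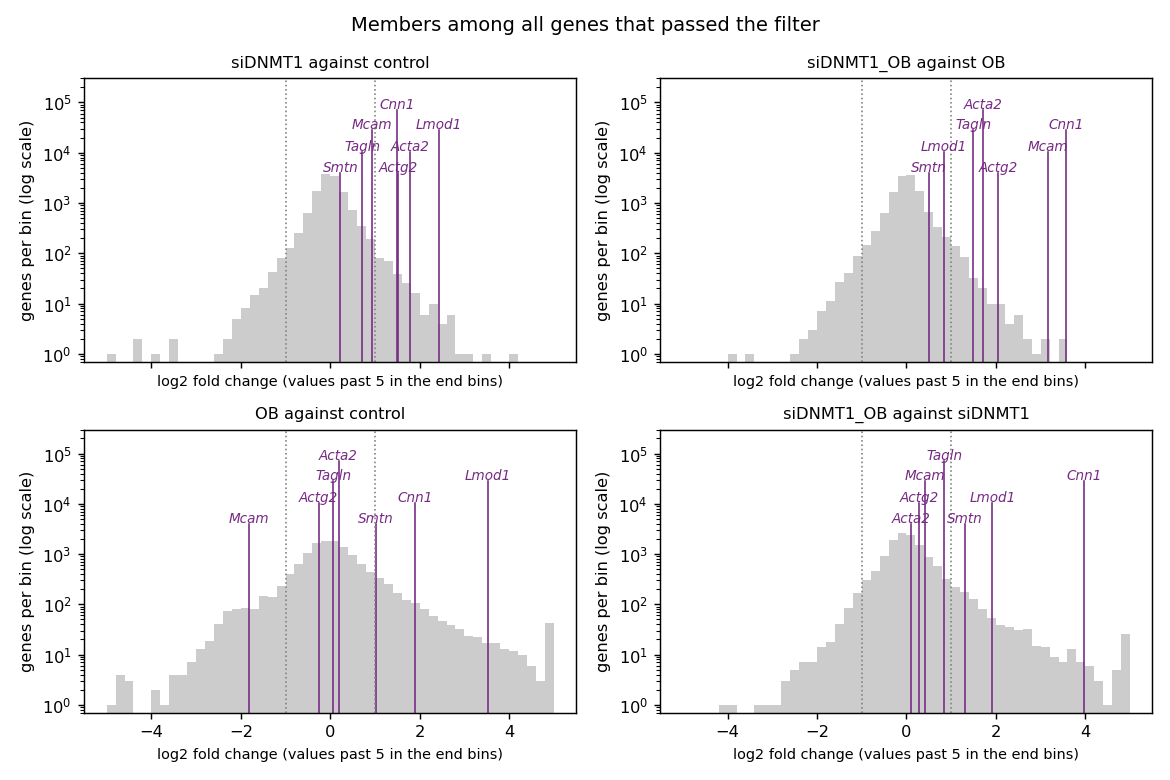
Number of filtered genes per bin of log2 fold change (log scale, 13233 genes) in the 4 comparisons, with a purple line at each member that passed the filter; dotted lines mark the limit of 1 in size. The 7 members lie to the right of 0 in both DNMT1 siRNA comparisons and on both sides of 0 for OB against control.

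The profile of Cnn1 over the 4 libraries was compared with that of every other filtered gene, by the Euclidean distance of log2 CPM centred on the mean of each gene. The nearest were Pappa2 (0.68), H19 (0.84), Cacna1h (0.85), Pcp4l1 (1.00) and Trpv2 (1.24). Pappa2, a protease of IGF-binding proteins, had 42, 142, 115 and 1233 counts in control, siDNMT1, OB and the library labelled siDNMT1_OB. H19, an imprinted noncoding RNA, had 2, 11, 17 and 117 in the same order, and Cacna1h, a T-type calcium channel, 2, 12, 14 and 107. All 5 were highest in the library labelled siDNMT1_OB, which is what closeness to Cnn1 selects for, and 4 libraries are too few to rank likeness firmly.

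The rest of the contractile apparatus was examined with a list of 29 further genes, of which 27 passed the filter. In uninduced cells 1 was past the limit on the higher side, Myl9 (1.65), the regulatory light chain of smooth muscle myosin, and 0 on the lower side, against 1.97% and 1.37% of all filtered genes. In OB cells, against 2.36% and 1.37%, 2 were higher, Myl9 (1.27) and Nexn (1.13), the actin-binding protein nexilin, and 0 were lower. Myl9 had 1887, 5580, 4001 and 11419 counts in control, siDNMT1, OB and the library labelled siDNMT1_OB. Over the whole list, 23 of 27 were positive in each comparison, with a median of 0.43 in each, while 49.7% and 52.2% of all filtered genes were positive. Cald1 (caldesmon) had 0.70 and 0.59, Tpm1 (tropomyosin 1) 0.73 and 0.43, and Flna (filamin A) 0.64 and 0.65. Negative values were among them too: Zyx had −0.58 and 0.07, Tpm2 −0.40 and 0.46, Mylk 0.43 and −0.41, and Pgm5 0.45 and −0.47. Induction with control siRNA put 7 past the limit on the higher side, led by Pgm5 (3.55), Mylk (3.54), the kinase that activates myosin, and Tns1 (2.78), and 2 on the lower side, Zyx (−1.74) and Filip1l (−1.67), against 10.6% and 7.1% of all filtered genes.

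Factors that control these genes formed another list. Of its 24 filtered genes, SRF, its cofactors and related factors, 2 were past the limit in uninduced cells, Mef2c (1.57) and Hey2 (1.03, from 33 counts against 16), and 1 in OB cells, Mef2c (1.04). All were on the higher side, where 1.97% and 2.36% of all filtered genes lay. The medians of the list were 0.17 and 0.06. Srf had 0.56 and 0.40, and the genes of the myocardin-related factors, listed as Mkl1 and Mkl2, had −0.07 and 0.05 in uninduced cells and −0.18 and 0.05 in OB cells. Klf4, a factor known to oppose smooth muscle genes, had 0.23 and 0.81. Among 20 widely expressed targets of SRF or YAP, 0 were past the limit in uninduced cells, against 3.34% of filtered genes in either direction. In OB cells, against 3.73%, 2 were past it, Thbs1 (2.08) and Ctgf (1.59), both also known to respond to TGF-beta. Of the 20, 12 were positive in uninduced cells (median 0.24) and 19 in OB cells (median 0.36). Among all filtered genes 49.7% and 52.2% were positive. Some of the 20 are also in the broader contractile list, Flna and Tpm1 among them, or among the cytoplasmic relatives below, as are Actb and Actg1. These lists are thus not independent.

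Receptors and signalling genes of contraction gave a thinner picture, since 17 of 26 passed the filter. In uninduced cells 0 were past the limit, against 3.34% of all filtered genes in either direction. In OB cells, against 2.36% higher and 1.37% lower, Rgs5 (2.66) and Rgs4 (2.06), which shorten G protein signals, were higher, and Ptgfr (−1.01), a prostaglandin receptor, was lower. The list had medians of 0.49 in uninduced cells and 0.14 in OB cells. In each state 12 of 17 were positive, against 49.7% and 52.2% of all filtered genes. Rgs5 had 60, 35, 6 and 56 counts in control, siDNMT1, OB and the library labelled siDNMT1_OB, so OB was its low library, as for Mcam. Ednrb, Agtr1a, Trpc6, Gucy1a1 and Gucy1b1 had 0 counts in the 4 libraries.

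The cytoplasmic relatives of the members were also measured. Of 13 filtered genes 0 were past the limit in uninduced cells and 1, Nes (1.58), was in OB cells, against 3.34% and 3.73% of all filtered genes. The medians were 0.14, with 7 of 13 positive, and 0.46, with 11 of 13 positive. Cnn2, the cytoplasmic relative of Cnn1, had 0.52 and 0.60, Tagln2, that of Tagln, −0.23 and 0.31, and Actb −0.09 and 0.22. The mean level over the 4 libraries was 314 CPM per kb for Cnn2 and 136 for Tagln2, while Cnn1 and Tagln reached 2.42 and 1.45 CPM per kb at most. Myh10, a nonmuscle myosin heavy chain, had 0.78 and 0.92.

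**Figure D5:**
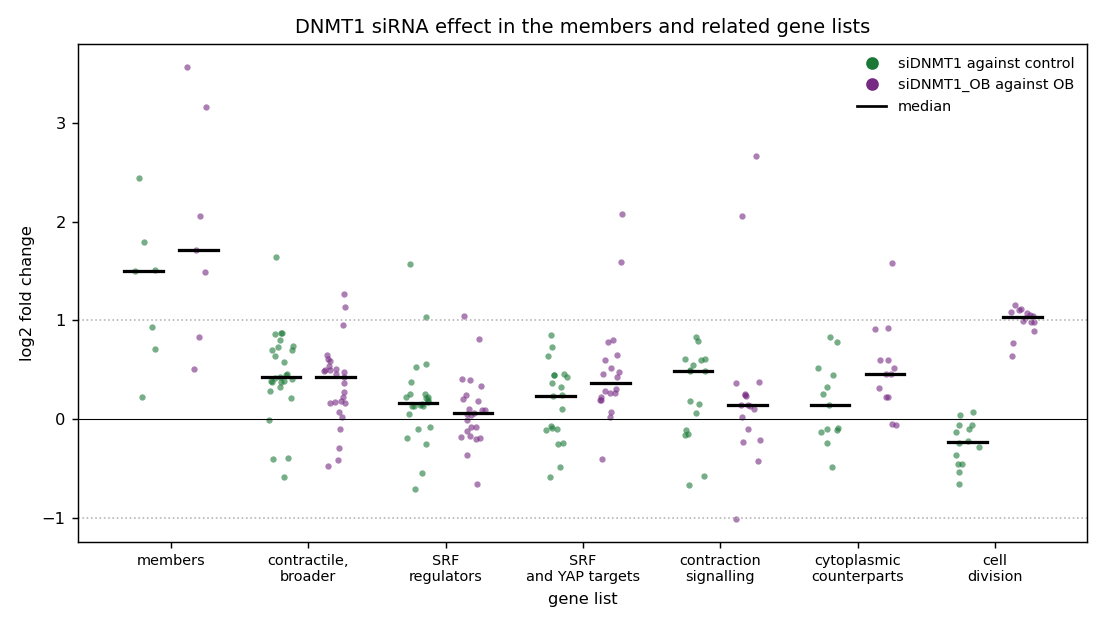
Log2 fold change after DNMT1 siRNA of each filtered gene of the members and of 6 related lists, in uninduced cells (green) and OB cells (purple), with the median of each as a bar and the limit of 1 in size as dotted lines. The members, chosen partly on these values, have medians of 1.498 and 1.71, the broader contractile list has 0.43 in each state, and cell division genes have 1.04 in OB cells.

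Most markers of striated muscle, endothelium and macrophages did not pass the filter. Of 15 skeletal muscle markers 1 passed the filter (Actn3) and 7 had 0 counts in every library, Myod1 and Myf5 among them. Of 11 cardiac markers 2 passed, and 3 had no count. Tnnt2, a cardiac troponin that passed, had −0.39 and 1.21 after DNMT1 siRNA in uninduced and OB cells, and Tnni3, the other one, 0.41 and −0.30. Of 10 endothelial markers 2 passed, with a summed level of 6.01 to 9.16 CPM over the libraries, and Pecam1 had at most 8 counts. Tek, an angiopoietin receptor, had 51, 152, 63 and 203 counts in control, siDNMT1, OB and the library labelled siDNMT1_OB, and log2 fold changes of 1.62 and 1.42 after DNMT1 siRNA. Egfl7, the other one that passed, went the opposite way, with −0.92 and −1.04. Of 9 macrophage markers 2 passed, with a summed level of the list of 10.8 to 12.8 CPM over the libraries, and Ptprc had at most 2 counts. Of 11 pericyte markers 5 passed, and Kcnj8 and Abcc9, which define these cells, had 0 counts. Others were abundant: Cspg4 had 8529, 7379, 5272 and 7090 counts in control, siDNMT1, OB and the library labelled siDNMT1_OB. Notch3 had 1566, 992, 4561 and 3224. After DNMT1 siRNA 1 of 5 was positive in uninduced cells (median −0.41) and 2 of 5 in OB cells (median −0.18). Anpep had −0.41 and −1.67, Notch3 −0.58 and −0.74, Cspg4 −0.13 and 0.18, and Rgs5, also a pericyte marker, −0.67 and 2.66. The summed pericyte level, with Pdgfrb of the mesenchymal list in it, was 676 CPM in control and 668 in siDNMT1, and 1038 in OB and 810 in the library labelled siDNMT1_OB. Of the 11 genes of activated fibroblasts 8 passed the filter, and 0 were past the limit after DNMT1 siRNA in either state, against 3.34% and 3.73% of all filtered genes. Of these 8, 7 were positive in uninduced cells (median 0.23) and 6 in OB cells (median 0.10). Fn1 had 0.69 and 0.68, Col1a1 0.19 and 0.24, Postn 0.82 and −0.34, Col3a1 0.02 and −0.42, and Pdpn −0.38 and 0.08. Over the 10 members, Acta2 alone held 93.0% to 97.2% of the summed CPM per kb.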

How the data were processed

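The authors deposited raw read counts per gene for 4 libraries of poly(A) RNA, with gene length. Per the labels and the study's methods, TruSeq v.2 libraries, which do not mark strand, were sequenced from both ends, trimmed (Trimmomatic), aligned (HISAT2, mm10) and counted (featureCounts); versions and the handling of overlapping genes are not given in the sources used here. Of 54409 genes shared with GENCODE M21 (GRCm38), 98.3% had the same position.

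From the counts, edgeR 4.0.16 under R 4.3.3 gave TMM factors of 0.991 to 1.01 for genes with a mean of at least 1 CPM. Log2 fold changes used a prior count of 2; printed ratios used none. Intervals are exact: Poisson for CPM, conditional binomial for ratios, and conditional for differences of log2 fold changes (Wald over 20000 counts). Reads carry no molecular identifiers, so they cover counting error only. No test was run. The calculations were tested on simulated data.

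The members and gene lists were chosen with earlier results of these data known. Genes named are the members, Dnmt1, up to 4 genes of a list past the limit, the 5 nearest to Cnn1 and overlapping genes. Other genes of a list were named for their role after their values were seen. 1 gene of a list is not reported here. Alternatives covered scaling, prior count, filter and limit.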

Additional observations from a re-analysis of the deposited data

Results flagged for a closer look

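Both flagged patterns concern OB induction with control siRNA and with DNMT1 siRNA, where a member lay on opposite sides of 0 with both counting intervals apart from 0. Mcam had a log2 fold change of −1.83 with control siRNA and 0.41 with DNMT1 siRNA, and Actg2 −0.26 and 0.29. With 1 library per group the difference was not tested, and the values with DNMT1 siRNA rest on the library labelled siDNMT1_OB.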

How the results depend on the processing

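No paired analysis was possible because each group held 1 library. Of 240 values of single members under other scalings and prior counts, 234 moved by no more than the longer side of their counting interval, and 0 called values changed sign. The other 6 were all Acta2, whose interval is narrow. This says nothing of Myocd against a library at 0, whose interval has no upper end: its fitted value for OB against control was 5.30 with a prior count of 0.5 and 2.27 with 5. Without a filter, OB against control had 5 members higher (median 0.61), the library labelled siDNMT1_OB against siDNMT1 had 5 higher and 1 lower, and against OB it had 2 lower (median 1.16); for 3 members (Lmod1, Des and Myocd) the DNMT1 siRNA difference was then lower by at least 1 in OB cells. These added members are Myh11, Des and Myocd, at few counts. For siDNMT1 against control, the median was 0.82 without a filter and 1.02 with a prior count of 5, and for the library labelled siDNMT1_OB against siDNMT1 it was 0.41 with a mean of at least 5 CPM. With a mean of at least 5 CPM, 3 members were higher in OB cells after DNMT1 siRNA and for 1 the difference was higher by at least 1 there. The median for OB against control was 0.22 under total count scaling, 0.24 under upper quartile scaling, 0.14 with TMM over all genes (where Smtn, at 0.98, was no longer past the limit and 2 members were higher) and 0.61 without Tagln. The median for DNMT1 siRNA in OB cells was 1.68 under total count scaling and 1.88 without Tagln. TMM over all genes and the omission of Tagln were chosen after the data were seen. Depth limits Cnn1 in control, Tagln, Myh11, Des and Myocd.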
